A study of Homo sapiens with 5 samples.

Results

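The 10 genes described here, AXIN2, NKD1, RNF43, ZNRF3, NOTUM, LGR5, TCF7, LEF1, SP5 and ASCL2, are feedback regulators and other transcriptional targets of the Wnt/beta-catenin pathway. They were taken by name from the 26485 genes counted in each library, and all 10 were found. RNA was sequenced from the 3' end in SW480 cells, an established human colorectal cancer line that carries truncated APC and has constitutive Wnt signalling. All cells carried dCas9-KRAB, a Cas9 without nuclease activity that is joined to a repressor domain and lowers transcription at its guide's site. Per the labels' protocols, the knockdown group of 3 libraries received an sgRNA against AKAP12 and the control group of 2 libraries received control sgRNAs, and RNA was taken 48 hours after seeding in both groups. The titles call the same groups shAKAP12 and shControl, so the labels name different silencing methods for the same cells. The labels used here name neither a clone nor separate cultures, so p-values measure the spread between these libraries, which may be technical.

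In this pathway, secreted Wnt proteins bind Frizzled receptors and LRP co-receptors and thereby stop a destruction complex of APC, AXIN and kinases from marking beta-catenin for breakdown. Beta-catenin then enters the nucleus and activates genes with TCF and LEF factors. Several of the activated genes act back on the pathway. AXIN2 is a scaffold of the destruction complex, NKD1 binds Dishevelled, RNF43 and ZNRF3 are ubiquitin ligases that remove Frizzled from the cell surface, and NOTUM removes a lipid from Wnt proteins outside the cell. In the gut, LGR5 and ASCL2 are known as genes of crypt stem cells. Loss of APC function keeps the pathway on in most colorectal cancers.

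Total counts were 9311026, 6890868 and 7763190 in the knockdown libraries and 4935096 and 8670141 in the controls. AKAP12, the targeted gene, had 1159, 1063 and 1008 CPM (reads scaled to a common library total with TMM factors) in the knockdown libraries and 2870 and 1550 CPM in the controls. All 3 knockdown libraries were below both controls, with a log2 fold change (log2FC, knockdown over control) of -1.04 (SE 0.31) at an edgeR adjusted p of 0.0513. Control 1 stood apart: across genes, which are no independent replicates, Pearson's r of log2 CPM was 0.91 with control 2 and 0.81 to 0.82 with the knockdown libraries, against 0.99 within each knockdown pair. Control 2 was closer to the knockdown libraries, at 0.92 to 0.94, than to control 1. TERT held 4198 to 17172 reads in the knockdown libraries and 366479 and 306715 in the controls. Short non-coding RNA and histone genes took 0.842% to 1.19% of knockdown reads, 9.4% of control 1 and 2.12% of control 2. Because of this, each tested member below is also given without each control. Such fits take their spread from the knockdown libraries alone, with the lone control assumed to vary like them. Over all 14536 tested genes, edgeR's quasi-likelihood test with Benjamini-Hochberg adjustment called 3282 at an adjusted p under 0.05, or 22.6%. The split was 1624 higher and 1658 lower, and 1668 higher and 982 lower when scaled by library size only, which shifted the median log2FC of all genes by 0.20. In 60.1% of the tested genes the libraries of the groups did not overlap. Of 10 colon epithelial markers, KRT18, KRT19, EPCAM, KRT8 and CDX2 were present, CDX1 had no read in any library, KRT20 had reads in 1 library only, and CDH1, VIL1 and LGALS4 had at most 7.59 CPM. KRT8 was higher in the knockdown, 1 of the 7 of these that were tested. All 10 stromal and blood cell markers had reads, with a summed level of 497.3 to 586.5 CPM in the knockdown libraries and 405.4 and 537.7 CPM in the controls. CD3D and CD68 were lower in the knockdown and no other of these markers passed, and the part of other cells' RNA in the results was not tested.

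Of the 10 members, 9 had enough reads to be tested, and 4 of these passed. NOTUM and SP5 were higher and AXIN2 and TCF7 were lower in the knockdown, while NKD1, RNF43, ZNRF3, LEF1 and ASCL2 did not pass. That is 2 members higher, against 11.2% of all tested genes, and 2 lower, against 11.4%. NOTUM was too low in both controls to pass the filter on low counts, so it was tested only through its knockdown reads. With so few members these shares describe the list and make no statement that it stands apart. The libraries of the groups did not overlap for 5 of the 9, 3 of them higher (31.6% of all genes) and 2 lower (28.5% of all genes). The median log2FC of the 9 was 0.21, against 0.04 over all tested genes. Against control 1 alone the log2FC was 0.79 for NKD1, 0.43 for RNF43 and 0.49 for ASCL2. Against control 2 alone it was -0.02 for NKD1, 0.08 for RNF43 and -0.55 for ASCL2. Without any 1 knockdown library no gene of the whole table passed (edgeR, 3774 to 4109 genes at an unadjusted p under 0.05). The 4 calls were thus lost along with all others. Their log2FCs in these fits were 3.76 to 3.82 for NOTUM, 1.01 to 1.18 for SP5, -0.91 to -0.77 for AXIN2 and -1.30 to -1.11 for TCF7. With bulk RNA, fewer cells with a transcript and less of it per cell cannot be told apart.

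**Figure D1:**
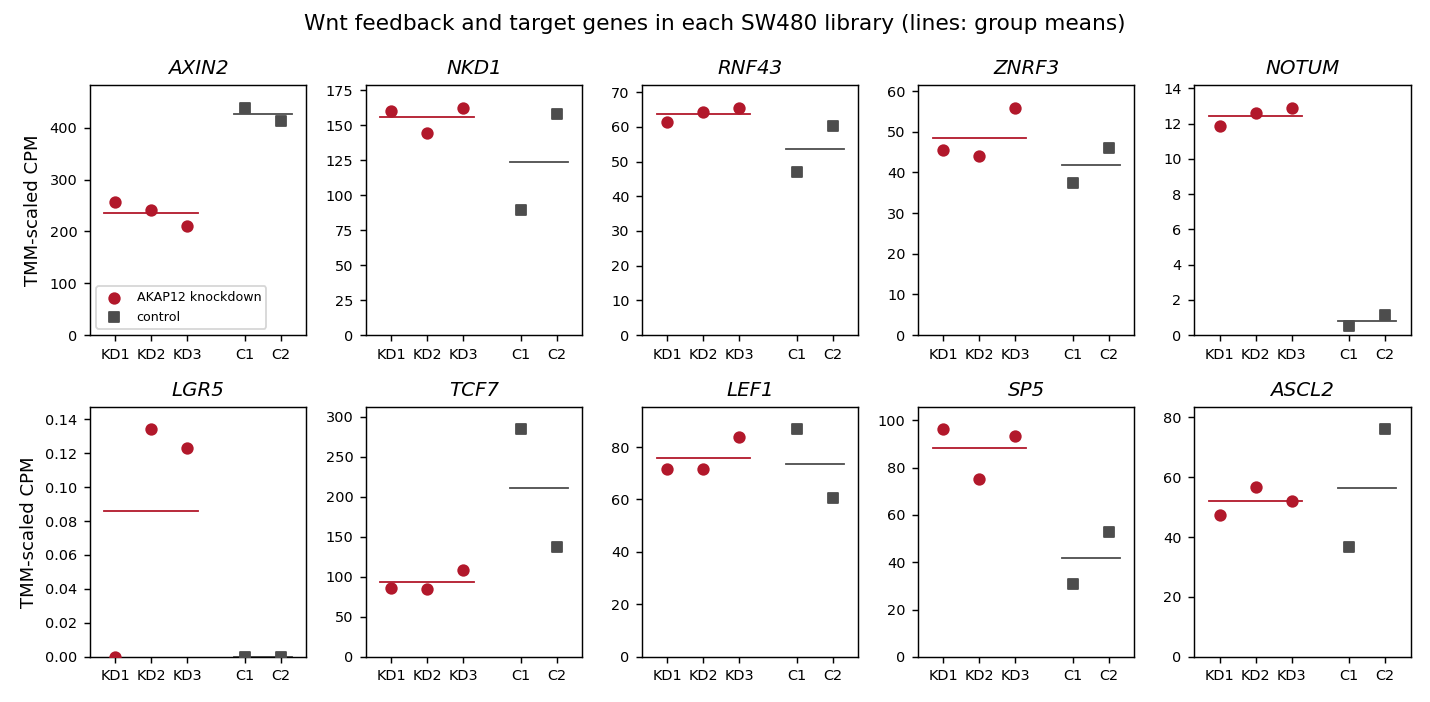
TMM-scaled CPM (y axis, linear, from 0) of each member in the 3 knockdown libraries (KD1 to KD3, circles) and the 2 control libraries (C1 and C2, squares), with lines at the group means. NOTUM and SP5 lie above both controls in all 3 knockdown libraries and AXIN2 and TCF7 lie below them. The controls differ from each other in NKD1, ASCL2, TCF7, SP5 and NOTUM, among others.

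AXIN2, the feedback scaffold that is widely used as a readout of beta-catenin activity, lies on chromosome 17 from 65528565 to 65561622 (hg38, minus strand). It had 256, 241 and 210 CPM in the knockdown libraries and 438 and 413 CPM in the controls. The controls were close to each other and every knockdown library was well below them. AXIN2 fell 1.81-fold, with a log2FC of -0.85 (SE 0.19) at an edgeR adjusted p of 0.0284. It was the called member that depended least on either control, at -0.81 without control 1 and -0.90 without control 2. Scaled by library size only it had a log2FC of -0.64 and missed the threshold (edgeR adjusted p = 0.0622).

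NKD1 (chromosome 16, 50548330 to 50640860, plus strand) had 160, 144 and 163 CPM in the knockdown libraries and 89.4 and 158 CPM in the controls. Control 2 lay among the knockdown libraries and control 1 was below all of them. The log2FC was 0.33 (SE 0.27, edgeR adjusted p = 0.403), but -0.02 without control 1 and 0.79 without control 2. The sign of its change rested on control 1.

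The Frizzled-removing ligases RNF43 (chromosome 17, 58352500 to 58417582, minus strand) and ZNRF3 (chromosome 22, 28883767 to 29057488, plus strand) did not pass the test. RNF43 had 61.4, 64.4 and 65.5 CPM in the knockdown libraries and 47.0 and 60.2 CPM in the controls. The groups did not overlap, yet knockdown 1 and control 2 were close to each other. ZNRF3 had 45.6, 44.1 and 55.9 CPM in the knockdown libraries and 37.5 and 46.1 CPM in the controls, which overlap. Their log2FCs were 0.25 (SE 0.20, edgeR adjusted p = 0.394) and 0.21 (SE 0.22, edgeR adjusted p = 0.501). Without control 1 they were 0.08 for RNF43 and 0.07 for ZNRF3, and without control 2 they were 0.43 and 0.37. RNF43 shares 1228 exon bases with the antisense gene BZRAP1-AS1, and the counts have no strand option, so reads there count for both. BZRAP1-AS1 had 227, 175 and 195 reads in the knockdown libraries and 136 and 235 in the controls.

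NOTUM, the secreted Wnt deacylase, showed the highest fold change of the members. The gene (chromosome 17, 81952507 to 81961181, minus strand) had 116, 94 and 105 reads in the knockdown libraries and 2 and 10 in the controls. This was 11.9, 12.6 and 12.9 CPM in the knockdown libraries and 0.490 and 1.15 CPM in the controls. The knockdown libraries lay close together and far above both controls. NOTUM rose with a log2FC of 3.77 (SE 0.42, edgeR adjusted p = 0.0131). Since the controls held 12 reads, the ratio of summed counts was 13.2, with an exact 95% interval of 7.48 to 25.9 that covers counting error only. Against control 2 alone the ratio was 10.8 (5.81 to 22.8), and against control 1 alone, with its 2 reads, it was 25.3 (6.96 to 210). Of the 4 calls, that of NOTUM also passed with the replicate number as a block (edgeR adjusted p = 0.0419) and by library size only (edgeR adjusted p = 0.0161).

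LGR5, an R-spondin receptor and crypt stem cell marker (chromosome 12, 71439770 to 71586308, plus strand), was not tested. It had 0, 1 and 1 reads in the knockdown libraries and 0 reads in both controls. A count of 0 allows up to 0.307 CPM in knockdown 1, 0.735 CPM in control 1 and 0.344 CPM in control 2, taking 3 reads as the limit. Any difference between the groups was not detectable at this depth. The related receptors LGR4 and LGR6 had 2.87, 4.55 and 2.21 CPM and 11.7, 12.9 and 10.6 CPM in the knockdown libraries. In the controls LGR4 had 3.18 and 3.10 CPM and LGR6 had 5.14 and 9.63 CPM, and neither passed (edgeR adjusted p = 0.971 for LGR4 and 0.210 for LGR6).

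TCF7 encodes TCF-1, a DNA-binding partner of beta-catenin, and lies on chromosome 5 from 134114711 to 134148229 (plus strand). It had 85.8, 84.4 and 109 CPM in the knockdown libraries and 284 and 138 CPM in the controls. All knockdown libraries were below both controls, and the gap between the controls was wider than the gap between control 2 and the knockdown libraries. TCF7 fell 2.26-fold, with a log2FC of -1.18 (SE 0.32) at an edgeR adjusted p of 0.0426. It was -0.56 without control 1 and -1.61 without control 2. The call was lost by limma-voom (adjusted p = 0.0506), by library size only (edgeR adjusted p = 0.0601) and with offsets for transcript GC content (edgeR adjusted p = 0.0579). TCF7 is made as full-length forms and as shorter forms that lack the beta-catenin binding end. GENCODE release 29 lists 14 protein-coding TCF7 transcripts with 11 different starts, and gene counts from 3' reads do not separate them.

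LEF1, the other TCF/LEF family member of the set (chromosome 4, 108047545 to 108168956, minus strand), had 71.7, 71.7 and 83.8 CPM in the knockdown libraries and 86.7 and 60.6 CPM in the controls. All knockdown libraries lay between the controls. Its log2FC was 0.04 (SE 0.23, edgeR adjusted p = 0.903), and the sign turned with the scaling (-0.01 with RLE factors). The log2FC was 0.32 without control 1 and -0.20 without control 2. LEF1 shares 279 exon bases with LEF1-AS1, which had 5 to 16 reads in the knockdown libraries and 16 and 7 in the controls.

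SP5, a zinc-finger transcription factor of the SP family and a direct beta-catenin target (chromosome 2, 170715347 to 170717988, plus strand), had 96.1, 75.3 and 93.3 CPM in the knockdown libraries and 30.6 and 52.9 CPM in the controls. All knockdown libraries were above both controls, control 1 being the lowest of the 5. SP5 rose 2.10-fold, with a log2FC of 1.07 (SE 0.29) at an edgeR adjusted p of 0.0401. It was 0.74 without control 1 and 1.52 without control 2. By library size only the log2FC was 1.24 and the edgeR adjusted p was 0.0512.

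ASCL2, a basic helix-loop-helix factor of intestinal stem cells (chromosome 11, 2268498 to 2270952, minus strand), had 47.2, 56.8 and 52.0 CPM in the knockdown libraries and 36.7 and 75.9 CPM in the controls. The knockdown libraries all lay between the controls. The log2FC was -0.12 (SE 0.32, edgeR adjusted p = 0.794), and it was -0.55 without control 1, 0.49 without control 2 and 0.40 with GC offsets. Its transcript GC content of 69.2% was the highest of the members, ahead of NOTUM at 66.5% and SP5 at 66.2%, and the median of tested genes was 48.4%. With GC offsets NOTUM had a log2FC of 4.19 and SP5 of 1.49.

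**Figure D2:**
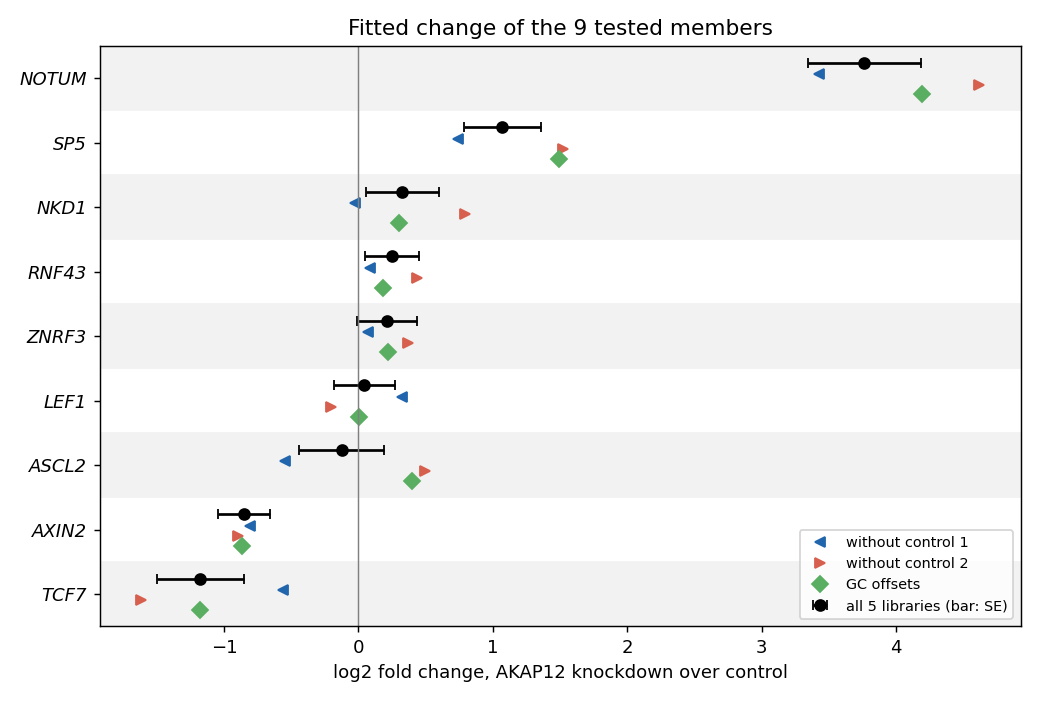
Log2 fold change (x axis, knockdown over control) of the 9 tested members, with all 5 libraries (circles, bars show the SE), without control 1, without control 2 and with GC offsets. AXIN2 stays between -0.81 and -0.90, whereas NOTUM, TCF7, SP5 and NKD1 move with the control that is left out. ASCL2, LEF1 and NKD1 change sign.

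In the authors' deposited table, whose values ran with the fitted ones across genes (Pearson's r = 0.999, positive meaning higher in the knockdown), the same 4 members had an adjusted p under 0.05. The log2FCs of the authors' deposited table were 3.78 for NOTUM (adjusted p = 2.03e-08), 1.06 for SP5 (0.00993), -0.87 for AXIN2 (0.00323) and -1.20 for TCF7 (0.0115). For the other 5 tested members the adjusted p in the authors' deposited table was 0.506 to 0.966, and LGR5 had none.

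Ratios between members within a library do not depend on how the libraries are scaled. TCF7 reads per LEF1 read were 1.20, 1.18 and 1.30 in the knockdown libraries and 3.27 and 2.27 in the controls. SP5 reads per AXIN2 read were 0.376, 0.312 and 0.445 in the knockdown libraries and 0.0698 and 0.128 in the controls. NOTUM reads per AXIN2 read were 0.0464, 0.0522 and 0.0616 in the knockdown libraries and 0.00112 and 0.00277 in the controls. For these 3 ratios the groups were apart, which restates the calls above, since each pairs members that were called in opposite directions or a called with an uncalled one. TCF7 reads per AXIN2 read, of the 2 members that fell, were 0.336, 0.350 and 0.519 in the knockdown libraries and 0.648 and 0.333 in the controls, and all knockdown libraries lay between the controls. The ligase ratio, RNF43 over ZNRF3, was 1.35, 1.46 and 1.17 in the knockdown libraries and 1.26 and 1.31 in the controls, and both controls lay within the knockdown range. An exact permutation test of any 1 ratio, 3 libraries against 2, cannot go below p = 0.1, so the ratios are given as a description.

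**Figure D3:**
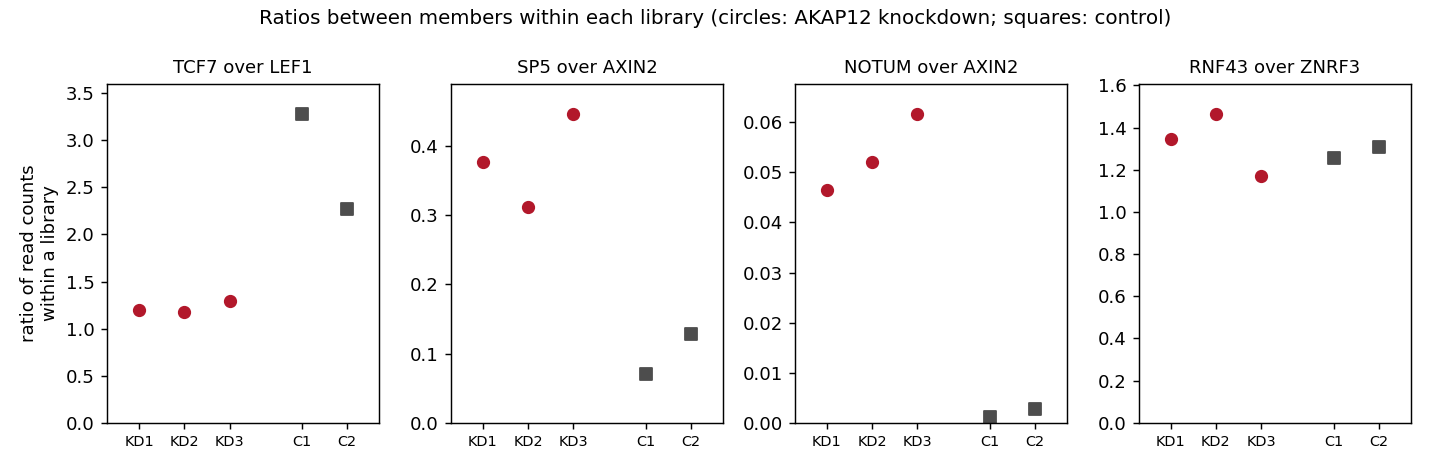
Ratio of read counts between members of a pair (y axes, linear, from 0) within each knockdown library (KD1 to KD3, circles) and each control library (C1 and C2, squares). TCF7 over LEF1 is 1.18 to 1.30 in the knockdown and at least 2.27 in the controls, SP5 and NOTUM over AXIN2 are higher in the knockdown, and RNF43 over ZNRF3 overlaps between the groups.

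AXIN2 took the highest share of the members' reads, with 30.6%, 30.4% and 24.8% in the knockdown libraries and 41.7% and 41.1% in the controls. Second was NKD1 in the knockdown libraries, with 19.2%, 18.1% and 19.2%, while its share in the controls was 8.51% and 15.7%. TCF7 took 10.3%, 10.6% and 12.9% in the knockdown libraries and 27.0% and 13.7% in the controls. Summed over the 10 members the level was 835.4, 794.9 and 844.9 CPM in the knockdown libraries and 1051 and 1006 CPM in the controls. AXIN2 and TCF7, which fell, held the most and, in control 1, the second most of the members' control reads.

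Per kilobase of annotated exon, the order of mean knockdown levels was AXIN2 (55.7 CPM per kb), SP5 (45.3), ASCL2 (28.1), TCF7 (22.2), LEF1 (18.3), NKD1 (17.9), RNF43 (10.9), ZNRF3 (7.17), NOTUM (5.62) and LGR5. Neighbours whose knockdown libraries overlapped were ASCL2 (25.5 to 30.7 CPM per kb) with TCF7 (20.1 to 26.0 CPM per kb), TCF7 with LEF1 (17.4 to 20.3 CPM per kb) and LEF1 with NKD1 (16.5 to 18.6 CPM per kb). In control 1 TCF7 stood second, at 67.8 CPM per kb after AXIN2 at 104 CPM per kb, and SP5 was at 15.7 CPM per kb. In control 2 ASCL2 stood second at 41.1 CPM per kb, ahead of TCF7 at 32.8 and SP5 at 27.2 CPM per kb. Reads from the 3' end need not scale with exon length, which limits such an order.

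Promoter sequence from RefSeq (build GRCh38.p14) was at hand for 4 of the 10 members, and the 250 bases before each annotated start were searched on both strands for the TCF/LEF core in the forms CTTTGAA and CTTTGAT and also CTTTGTA and CTTTGTT. SP5, which rose, and TCF7, which fell, each held a match, and LEF1 and RNF43 held none in their windows. The only LEF1 window (chr4:108166302-108166551, minus strand) lies inside the gene. The bases before the outermost LEF1 start, at 108168956, were therefore not searched. Both TCF7 windows also lie inside the gene, so the bases before the outermost TCF7 start, at 134114711, were not searched either. SP5 and 1 of the 2 TCF7 windows are printed here to show where the letters lie, 5′ to 3′ in gene direction, with the matches in capitals. The SP5 window is chr2:170715087-170715336 (plus strand) and has 3 matches that start 148, 109 and 84 bases before the start, the middle one on the plus strand and the outer ones on the minus strand. The TCF7 window is chr5:134123368-134123617 (plus strand), upstream of a start inside the gene, and has 1 match on the minus strand 50 bases before that start.
SP5: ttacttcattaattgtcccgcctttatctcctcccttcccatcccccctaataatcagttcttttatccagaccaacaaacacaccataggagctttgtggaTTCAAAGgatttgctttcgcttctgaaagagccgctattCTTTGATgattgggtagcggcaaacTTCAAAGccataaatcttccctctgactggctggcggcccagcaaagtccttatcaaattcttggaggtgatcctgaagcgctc
TCF7: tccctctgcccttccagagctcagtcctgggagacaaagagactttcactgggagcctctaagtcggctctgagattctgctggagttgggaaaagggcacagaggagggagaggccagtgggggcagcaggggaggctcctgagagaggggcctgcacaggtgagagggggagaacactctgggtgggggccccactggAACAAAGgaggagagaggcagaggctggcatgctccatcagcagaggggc
Of 34943 promoter windows of this length, 12% held at least 1 match and 0.123% held 3 or more. The GC content was 45.6% in the SP5 window and 62% in the printed TCF7 window, against a median of 58% over all windows. These shares are not matched for base composition. A match is a description of the letters and not a bound site, and the members with a match changed in opposite directions.

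The rest of the pathway was read from lists by role. Among 21 members of the beta-catenin destruction complex and its regulators, all tested, 2 rose and 3 fell, a share of 23.8% against 22.6% of all genes, with a median log2FC of 0.01. CTNNB1, the gene of beta-catenin, had 401, 419 and 423 CPM in the knockdown libraries and 41.4 and 142 CPM in the controls. Every knockdown library was above both controls, and the controls differed from each other more than 3-fold. CTNNB1 rose with a log2FC of 2.16 (SE 0.50, edgeR adjusted p = 0.0290), which was 1.54 without control 1 and 3.32 without control 2. AXIN1, the scaffold related to AXIN2, rose with a log2FC of 0.99 (edgeR adjusted p = 0.0420), while its limma-voom adjusted p was 0.0530. The AXIN paralogs changed in opposite directions, with and without either control (AXIN1 at 0.88 without control 1 and 1.13 without control 2).

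APC, which is truncated in these cells, had 80.1, 76.3 and 77.6 CPM in the knockdown libraries and 88.7 and 72.1 CPM in the controls (log2FC -0.04, edgeR adjusted p = 0.887). The knockdown libraries lay between the controls. CSNK1E, a kinase of the pathway, fell with a log2FC of -1.31 (edgeR adjusted p = 0.0175). It shares 2543 exon bases with the read-through gene LOC400927-CSNK1E, at -1.30, and their reads are largely the same. AMER1, which recruits APC to the membrane, fell with a log2FC of -1.23 (edgeR adjusted p = 0.0267). APC2, a relative of APC, fell with a log2FC of -2.99 (edgeR adjusted p = 0.0304), but was at -1.33 without control 1, and limma-voom gave an adjusted p of 0.0834.

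Of 19 nuclear partner symbols 18 were in the files and 17 were tested, of which 1 rose and 5 fell (35.3% against 22.6% of all genes, median log2FC -0.16). All-gene shares were 11.2% higher and 11.4% lower. TCF7L2, the main TCF factor of the colon epithelium, had 69.2, 64.4 and 72.7 CPM in the knockdown libraries and 172 and 109 CPM in the controls, and fell with a log2FC of -1.03 (SE 0.24, edgeR adjusted p = 0.0295). Like TCF7 it was below both controls in every knockdown library, and it was -0.67 without control 1. BCL9L, which links beta-catenin to Pygopus, fell with a log2FC of -1.86 (edgeR adjusted p = 0.0214, -1.08 without control 1), and shares 131 exon bases with CXCR5. SMARCA4, an ATPase of SWI/SNF chromatin remodelling, fell with a log2FC of -1.41 (edgeR adjusted p = 0.0232, -0.89 without control 1). The Groucho-family genes TLE3 (log2FC -0.71) and AES (log2FC -0.89) also fell, and were named after their values were seen. The corepressor gene CTBP1 rose with a log2FC of 1.14 (edgeR adjusted p = 0.0175), and shares 605 exon bases with its antisense gene CTBP1-AS.

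At the cell surface, 17 of 18 receptors and co-receptors were tested, and 4 rose while 0 fell by edgeR (median log2FC 0.37). That is 23.5%, against 22.6% of all genes called either way and 11.2% called higher. At an unadjusted edgeR p under 0.05, 6 were higher and 1 lower. Of all 14536 tested genes, 5890 were under that threshold, either way. DESeq2 called 1 receptor gene lower and limma-voom 0. The Frizzled receptor genes FZD7 and FZD2 rose with log2FCs of 1.84 (edgeR adjusted p = 0.0172) and 1.85 (edgeR adjusted p = 0.0388). FZD2 had 24.8, 24.9 and 25.6 CPM in the knockdown libraries and 2.69 and 10.4 CPM in the controls, was at 3.21 without control 2, and missed the threshold by library size only (edgeR adjusted p = 0.0542). The atypical Wnt receptor genes RYK and PTK7 rose with log2FCs of 1.83 (edgeR adjusted p = 0.0140) and 1.25 (edgeR adjusted p = 0.0214).

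Extracellular antagonists other than NOTUM had 14 of 15 symbols in the files and 11 tested, and 4 rose while 0 fell (36.4% against 22.6% of all genes called either way and 11.2% called higher, median log2FC 0.97). Of the 4, DKK1, DKK3 and FRZB were too low in at least 1 control to pass the filter on low counts without their knockdown reads. The count higher is therefore partly set by the filter. At an unadjusted edgeR p under 0.05, 6 antagonists were higher and 0 lower, where 5890 of all 14536 tested genes passed either way. DESeq2 and limma-voom each called 0 antagonists lower. KREMEN2, a Dickkopf receptor gene, rose with a log2FC of 1.94 (edgeR adjusted p = 0.0263). DKK1, a secreted LRP antagonist, had 34, 38 and 29 reads in the knockdown libraries and 5 and 2 reads in the controls. The ratio of summed counts was 7.28 (exact 95% counting interval 3.41 to 18.6), 17.4 (4.68 to 145) without control 1 and 3.25 (1.35 to 10.2) without control 2. DKK3 had a log2FC of 2.33 (edgeR adjusted p = 0.0380), with 2 reads in control 1 and 33 in control 2. Its ratio of summed counts was 4.41 (3.10 to 6.45), 3.19 (2.22 to 4.71) without control 1 and 24.6 (6.76 to 204) without control 2. FRZB, a secreted Frizzled-related protein gene, had 5.22, 4.96 and 4.79 CPM in the knockdown libraries and 0 and 1.15 CPM in the controls, and a count ratio of 6.41 (3.37 to 13.7). With control 1 alone, which is at 0, the knockdown was at least 6.81-fold higher, taking 3 reads as the floor. DKK1 lost its call with GC offsets (edgeR adjusted p = 0.0528), and DKK3 (0.0508) and FRZB (0.0503) lost theirs by library size only.

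Of 25 genes for Wnt and R-spondin ligands and their secretion, 10 were tested, with a median log2FC of 0.47. By edgeR 0 passed, against 22.6% of all genes, and 0 passed by DESeq2 or limma-voom. At an unadjusted edgeR p under 0.05, 5 were higher and 1 lower, where 5890 of all 14536 tested genes passed either way. WNT5A, a ligand mostly of beta-catenin independent signalling, had 79.8, 71.4 and 89.9 CPM in the knockdown libraries and 50.2 and 58.5 CPM in the controls (log2FC 0.56, edgeR adjusted p = 0.0893). WLS, the carrier that brings Wnt proteins to the cell surface, had a log2FC of 0.65 (edgeR adjusted p = 0.0677) and WNT6 of 0.84 (edgeR adjusted p = 0.0886). WNT10B held 5 control reads, with a count ratio of 4.54 (exact 95% counting interval 1.81 to 14.7, edgeR adjusted p = 0.0526), and passed by library size only (edgeR adjusted p = 0.0457). With GC offsets WNT10B (edgeR adjusted p = 0.0484) and WNT6 (0.0344) passed. WNT10B was too low in both controls to pass the filter on low counts without its knockdown reads.

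**Figure D4:**
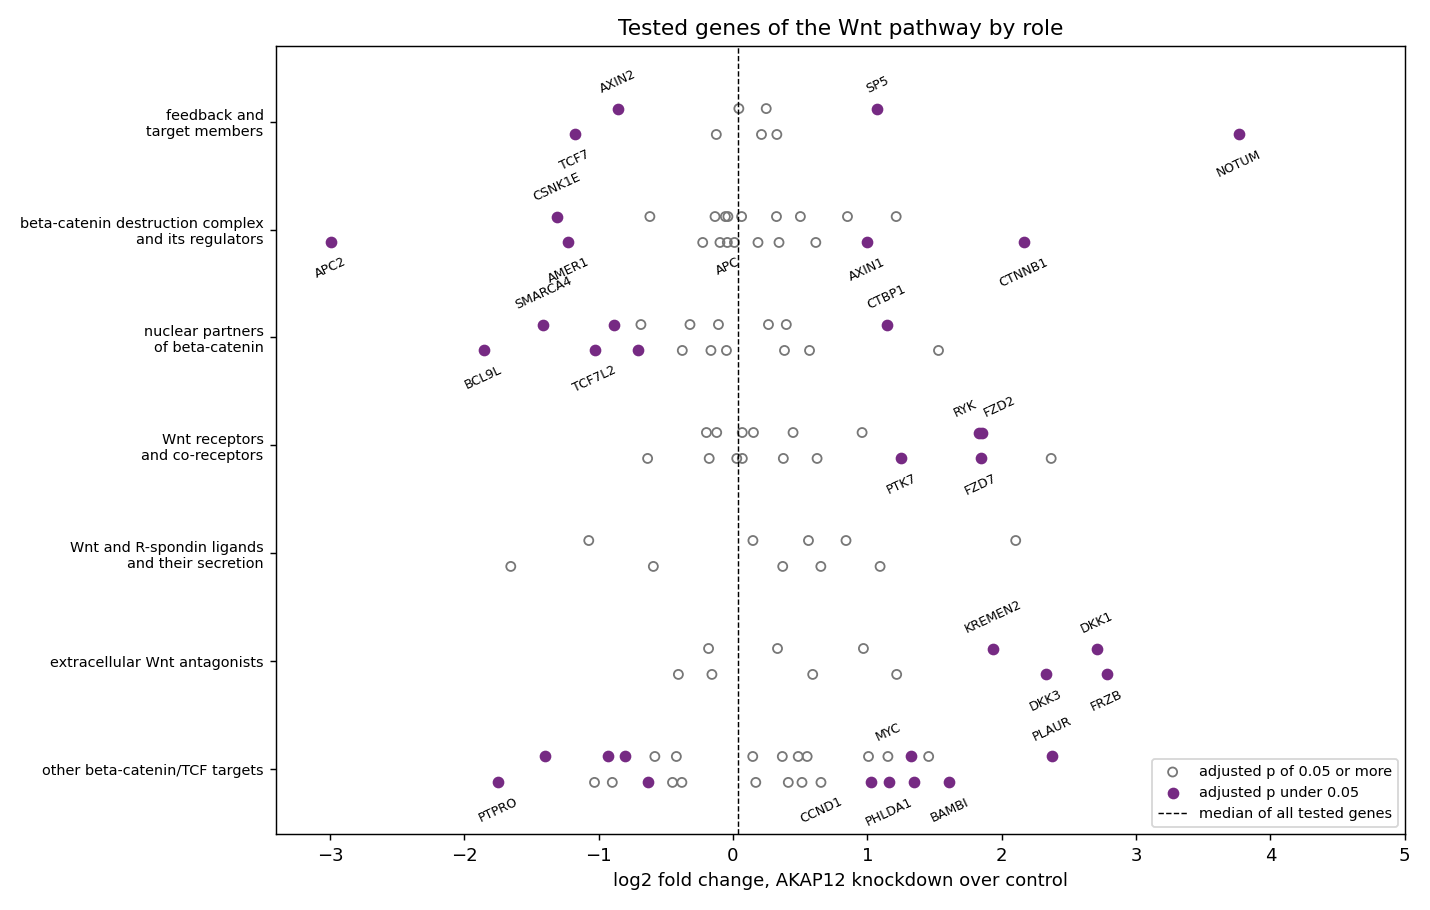
Log2 fold change (x axis, knockdown over control) of every tested gene of the members and of the 6 pathway lists, with filled points for an edgeR adjusted p under 0.05 and a dashed line at the median of all tested genes, 0.04. Called genes lie on both sides in the members, the destruction complex, the nuclear partners and the other targets, and on the higher side in the receptors (4) and the extracellular antagonists (4). Among these antagonists, DKK1, DKK3 and FRZB passed the filter on low counts only with the help of their knockdown reads.

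Other beta-catenin/TCF targets moved both ways, as the members did. Of 32 symbols 30 were in the files and 28 tested, and 6 rose and 5 fell (39.3% against 22.6% of all genes, median log2FC 0.39). The urokinase receptor gene PLAUR rose with a log2FC of 2.38 (SE 0.29, edgeR adjusted p = 0.0131), BAMBI, a pseudoreceptor for TGF-beta, with 1.61 (SE 0.30, edgeR adjusted p = 0.0209) and PHLDA1 with 1.16 (SE 0.22, edgeR adjusted p = 0.0210). The phosphatase gene PTPRO fell, with 2.76, 3.21 and 2.95 CPM in the knockdown libraries and 12.2 and 8.03 CPM in the controls (log2FC -1.75, edgeR adjusted p = 0.0219). NKD2, the paralog of NKD1, had 12.4, 10.4 and 11.7 CPM in the knockdown libraries and 21.6 and 18.7 CPM in the controls (edgeR adjusted p = 0.0494), and was singled out after its values were seen. MYC had 59.6, 64.0 and 81.5 CPM in the knockdown libraries and 44.8 and 17.4 CPM in the controls, a log2FC of 1.15 (edgeR adjusted p = 0.0813). It passed by limma-voom (adjusted p = 0.0448), by library size only (edgeR adjusted p = 0.0442) and with no filter on low counts (edgeR adjusted p = 0.0416). The cyclin D1 gene CCND1 had 1235, 1240 and 1347 CPM in the knockdown libraries and 713 and 905 CPM in the controls, a log2FC of 0.65 (edgeR adjusted p = 0.0804). It passed by DESeq2 (adjusted p = 0.0236) and limma-voom (adjusted p = 0.0459). For both genes all knockdown libraries were above both controls.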

How the data were processed

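The deposited values are whole-number counts of reads per gene. The authors made them with featureCounts 1.6.2 on exons, per the file headers, without a strand option, and a read over more than 1 gene was given to each gene. STAR 2.7, hg38 and DESeq2 1.22 are named in the submitters' processing notes. The authors' deposited table gives per gene a log2 fold change with its error, a mean signal, a test statistic (a score) and p-values, and its direction was read from the fitted values. How reads were trimmed is not given in the sources used here.

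Genes were filtered with filterByExpr (minimum count 10) and TMM factors set the scale. The groups were tested with edgeR 4.0.16 (R 4.3.3, quasi-likelihood test, two-sided, no covariate). P-values were adjusted by Benjamini-Hochberg over all tested genes. SE was taken as the size of the log2FC over the root of F. Count intervals are exact and cover counting error only. Alternatives were DESeq2 1.42.0, limma-voom (limma 3.58.1), library size only, RLE scaling, no filter, a minimum of 5 CPM in 2 libraries, a block for the replicate number, leaving out each library, and removal of TERT, short RNA and histone genes. Offsets for transcript GC content (GENCODE 29, span 0.2, 94.4% of tested genes with a value) were added after seeing the data. The fit was also run on simulated counts with known changes, and only the set with low spread between libraries had a pass condition. That condition does not test calls at the spread of these libraries.

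The members and lists were chosen with earlier results of these data known. Named genes were all members, AKAP12, up to 4 per list with the smallest p, and CTNNB1, APC, AXIN1, TCF7L2, MYC and CCND1. LGR4, LGR6, TLE3, AES and NKD2 were named after their values were seen.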

Additional observations from a re-analysis of the deposited data

How the results depend on the processing

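NOTUM, SP5, AXIN2 and TCF7 kept their direction under all 14 alternatives. The number of members higher, 2 in the reported fit, was 1 by library size only and 1 with the replicate number as a block, and ran from 0 to 5 with 1 library left out. The number lower, also 2, was 1 by limma-voom, 1 with GC offsets, 0 by library size only and 0 with the block, and ran from 0 to 3. Over all genes 3282 calls became 210 with the replicate block and ran from 0 to 8811. The 0 is the count without any 1 knockdown library. In the 6 pathway lists, 17 higher and 13 lower became 1 and 0 with the block, 8 lower by library size only, and ran from 0 to 41 higher and 0 to 25 lower. AKAP12 passed by DESeq2 (-1.09), limma-voom (-0.98), without a filter (-0.996), with the stricter filter (-1.06), without TERT, short RNA and histone genes (-1.05) and with GC offsets (-1.16), and ran from -1.42 to -0.52 with 1 library left out.

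Values that changed sign were those of LEF1 (-0.0049 by DESeq2, -0.0061 with RLE, -0.016 with the replicate block, -0.20 to 0.32 with 1 library left out), ASCL2 (0.041 by library size only, 0.40 with GC offsets, -0.55 to 0.49 with 1 library left out), NKD1 (-0.023 to 0.79 with 1 library left out), APC (0.18 by library size only, -0.19 to 0.11 with 1 library left out) and the median of the nuclear partners (0.010 by library size only). The cause was not tested. The numbers are not stated to pair libraries, and deviations of same-numbered libraries correlated at -0.057 and -0.076 across genes. Depth limits LGR5, NOTUM and DKK1, with 0, 12 and 7 control reads.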
